A study of Homo sapiens with 6 samples.

Results

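The proteasome genes described here were the protein-coding entries of the expression table whose symbol starts with PSM, followed by a letter from A to G and a number. The rule found 49 of the 58938 entries. By role they were 19 genes of the core particle (PSMA and PSMB), 17 of the regulatory particle (PSMC and PSMD), 5 activators or inhibitors (PSME and PSMF), 7 assembly factors and PSMC3IP. The assembly factors were PSMG1 to PSMG4 with PSMD5, PSMD9 and PSMD10, whose products help to build the particle and leave it when it is complete. PSMC3IP matched the name pattern but encodes a protein of meiotic recombination that was named for its binding to PSMC3, so it was kept apart.

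The proteasome is the protease that degrades most ubiquitin-tagged proteins of the cytosol and nucleus. Its core particle is a barrel of alpha and beta rings whose active sites lie on the catalytic beta subunits, inside the chamber. The regulatory particle caps the barrel, binds and removes the ubiquitin tag and unfolds the substrate with a ring of ATPases. When proteasome activity is inhibited, the transcription factor NFE2L1 is known to activate subunit genes together, through antioxidant response elements in their promoters.

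Expression was measured by RNA sequencing of HCT116, a line grown from a human colorectal carcinoma, in 3 MST3 libraries and 3 vector libraries. The MST3 libraries came from cells with overexpression of MST3, a protein kinase encoded by STK24, and the vector libraries from cells of the WT genotype given a vector. Both groups were described by 1 protocol, with lipofection of plasmid at 60% density, a change of medium after 6 hours and collection of RNA after 30 hours. The replicates were not stated to be separate cultures, so each p-value reflects only how far these samples differ among themselves, a spread that may be technical.

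Values were FPKM (fragments per kilobase of exon, scaled for each library by the authors), and they were whole multiples of the value of 1 read. The recovered reads came to 15289213 to 17209736 per MST3 library and 17296201 to 17708029 per vector library. STK24 had 63.7, 72.2 and 76.0 FPKM in the MST3 libraries, against 17.1, 17.4 and 17.4 FPKM in the vector libraries. Its mean was 70.7 ± 6.30 FPKM with MST3 and 17.3 ± 0.161 FPKM with vector (SD, n = 3 each), a ratio of 4.08, with an adjusted p of 0.000998 by limma and an exact permutation p of 0.1, the smallest that 3 libraries against 3 allow. Of the exon bases of STK24, 63.5% face annotated exons on the opposite strand, and no source used here states how strand was handled. MST3 replicate 1 stood apart, with the fewest reads and with reads in 27442 genes, against 25099 to 25501 in the other libraries. All 6 epithelial markers examined, among them EPCAM and KRT18, averaged at least 1 FPKM, and their summed level was 1599 to 2020 FPKM with MST3 and 1681 to 1734 FPKM with vector. None of 5 immune and none of 3 endothelial markers reached 1 FPKM on average, nor did 4 of 5 fibroblast markers, COL1A1 being the exception.

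Promoter sequences were examined because the genes of this complex are known to be switched on together through a shared element. Of the 49 genes, 43 were matched to RefSeq promoters (GRCh38.p14, 250 bases before to 50 after each start), which gave 53 promoters. The core of the antioxidant response element, TGACNNNGC on either strand, was found in 15 of the 53 (28.3%), against 13.8% of 22199 promoters of protein-coding genes. Sites from each kind of subunit are printed 5′ to 3′ on the strand of the gene, with the core in capitals. Where the capitals start with GC, the core reads on the opposite strand.
PSMA4 (alpha ring), chr15:78540650-78540678, plus strand: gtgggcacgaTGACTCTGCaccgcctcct
PSMB3 (beta ring), chr17:38752627-38752655, plus strand: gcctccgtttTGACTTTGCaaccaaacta
PSMB9 (immunoproteasome), chr6:32854034-32854062, plus strand: gggcggggctGCCTCGTCActtgtctcgg
PSMC5 (ATPase), chr17:63827654-63827682, plus strand: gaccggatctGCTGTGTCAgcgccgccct
PSMD3 (regulatory, non-ATPase), chr17:39980760-39980788, plus strand: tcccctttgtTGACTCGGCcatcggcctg
PSMD12 (regulatory, non-ATPase), chr17:67366724-67366752, minus strand: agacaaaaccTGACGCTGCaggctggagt
PSME1 (activator), chr14:24136098-24136126, plus strand: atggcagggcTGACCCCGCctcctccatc
PSME4 (activator), chr2:53971009-53971037, minus strand: cccggcggctGCAGCGTCAccagcagagc
PSMG1 (assembly), chr21:39183616-39183644, minus strand: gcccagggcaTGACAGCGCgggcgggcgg

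The core lay 126 to 118 bases before the start in PSMA4, 104 to 96 in PSMB3 and 37 to 29 in PSMD3. Among other motifs, searched on both strands, CCGGAA, the core bound by ETS factors, was in 24 of the 53 promoters (45.3%), against 21.2% of protein-coding promoters. The GC box GGGCGG was in 37 (69.8%, against 56.3%) and CCAAT in 22 (41.5%, against 34.7%). The TATA box TATAAA was in 5 (9.43%, against 9.47%). These are matches of letters and not measured binding sites.

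The levels of the proteasome genes in HCT116 ranged from no read to over 100 FPKM, and they followed the known division into always-made, inducible and tissue-restricted subunits, apart from some genes with shared exons. Of the 49 genes, 42 averaged at least 1 FPKM over the 6 libraries and were tested. The 7 that did not were PSMA2, PSMA6, PSMA8, PSMB8, PSMB10, PSMB11 and PSMD9. Since the filter used the mean of all libraries, what follows on differences concerns the 42 tested genes, which are 41 proteasome genes and PSMC3IP. The highest levels belonged to PSMB3, a non-catalytic beta subunit, with 125, 120 and 130 FPKM in the MST3 libraries and 130, 133 and 127 FPKM in the vector libraries. PSMA7 of the alpha ring had 131, 99.6 and 128 FPKM in the MST3 libraries, against 100.4, 107 and 107 FPKM in the vector libraries. For both genes the groups overlapped.

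**Figure D1:**
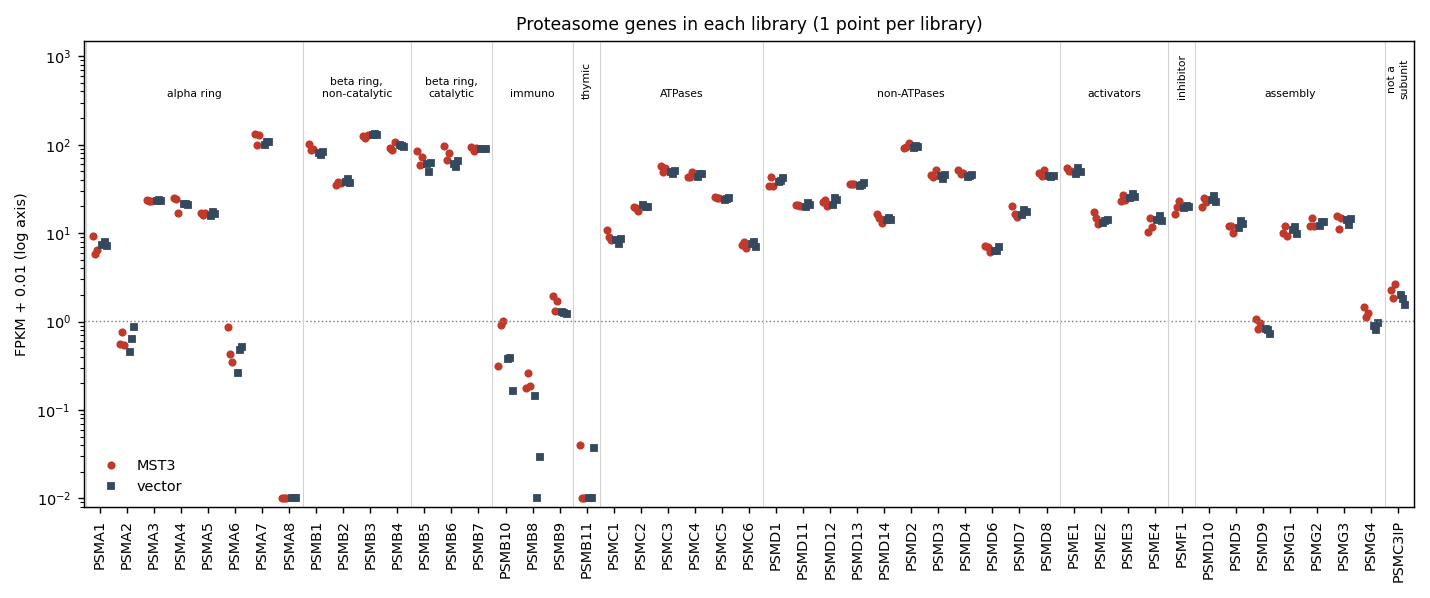
FPKM + 0.01 on a log axis for the 49 genes, ordered by role, with 1 red circle per MST3 library and 1 blue square per vector library; the dotted line is 1 FPKM. Most subunits lie between 6 and 130 FPKM with both groups at nearly the same height. PSMA2, PSMA6, PSMA8, PSMB8, PSMB10, PSMB11 and PSMD9 average under 1 FPKM.

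Subunits that occur in every proteasome did not have equal FPKM. Among 11 core subunits of this kind whose exons are not shared with another gene, mean FPKM ran between 16.5 in PSMA5 and 128 in PSMB3, a ratio of 7.74. Among the 17 regulatory subunits it ran between 6.64 in PSMD6 and 95.4 in PSMD2, a ratio of 14.4. PSMD2 encodes a large scaffold subunit of the regulatory particle and had 92.0, 93.6 and 106 FPKM with MST3 and 90.9, 95.8 and 94.3 FPKM with vector. The gene length that the authors divided by was the union of all annotated exons in 49 of 49 genes, which includes long untranslated exons and exons of rare transcripts. The same reads, those of untranslated exons included, were also divided by coding length, a choice made after seeing the data. The ratio of highest to lowest was then 3.18 for the core subunits and 4.51 for the regulatory subunits. Dividing so raises genes with long untranslated exons. Levels of different subunits on the FPKM scale therefore depended on which length was used.

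The genes under 1 FPKM were tissue-restricted subunits, inducible subunits and genes with shared exons. PSMA8, an alpha subunit known from testis, had no read in any library, where 3 reads, the limit that a count of 0 allows, would be 0.0912 to 0.0993 FPKM with MST3 and 0.0901 to 0.0924 FPKM with vector. This limit, like all read counts here, covers counting error only. PSMB11, the catalytic subunit of the thymic cortex, had 1, 0 and 0 reads in the MST3 libraries and 0, 0 and 1 reads in the vector libraries, under that limit of 3 reads in every library.

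The other low genes were PSMA2, PSMA6, PSMD9 and PSMB10, and they were joined by PSMA1, whose level was low for an alpha subunit. PSMA2, PSMA6 and PSMD9 were singled out after their values were seen. PSMA2, present in every core particle, had 0.540, 0.755 and 0.536 FPKM with MST3 and 0.437, 0.623 and 0.848 FPKM with vector. PSMA6, likewise an obligatory alpha subunit, had 0.848, 0.416 and 0.341 FPKM with MST3 and 0.254, 0.466 and 0.502 FPKM with vector. PSMA1 had 9.33, 5.84 and 6.36 FPKM with MST3 and 7.26, 7.97 and 7.19 FPKM with vector. In GENCODE 29, whose positions all 58735 Ensembl entries of the table share, the coding bases of these genes lie largely inside same-strand exons of another annotated gene. The share was 97.1% for PSMA2, 88.6% for PSMA1, 70.4% for PSMA6, 58.7% for PSMD9 and 58.3% for PSMB10. It was 14.2% for PSMF1, 0.125% for PSME2 and 0 for all the other proteasome genes. The overlapping genes were AC010132.3 for PSMA2, AC018523.2 for PSMA1, AL121594.1 for PSMA6, AC040162.1 for PSMB10, and AC069503.2 with WDR66 for PSMD9. All 6 are annotated as protein-coding. WDR66 had 0.579 to 0.629 FPKM with MST3 and 0.551 to 0.739 FPKM with vector, and the other 5 had at most 0.191 FPKM with MST3 and 0.212 FPKM with vector.

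The 5 genes had a median level of 0.623 FPKM (range 0.471 to 7.32), against 38.1 FPKM (range 6.64 to 128) for the 28 always-made core and regulatory subunits with under 50% of coding bases shared. PSMB10 also belongs to the inducible set of catalytic subunits. PSMD9 is an assembly factor, a class that the 28 do not hold. The other assembly factors averaged from 1.06 FPKM in PSMG4 to 23.3 FPKM in PSMD10. Across all protein-coding genes of the table, 902 had at least 90% of their coding bases shared, and 92.1% of these averaged under 1 FPKM. Among the 18586 genes with under 50% shared, 42.9% averaged under 1 FPKM. Of the 5 genes, only PSMA2 had at least 90% shared. Genes with 50% to 90% shared, as in PSMA1, PSMA6, PSMD9 and PSMB10, were not counted, so 92.1% is not a rate for them. The part of exon sharing in the low values of PSMA2, PSMA6, PSMA1, PSMB10 and PSMD9 was not tested, and levels of these 5 genes are uncertain.

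**Figure D2:**
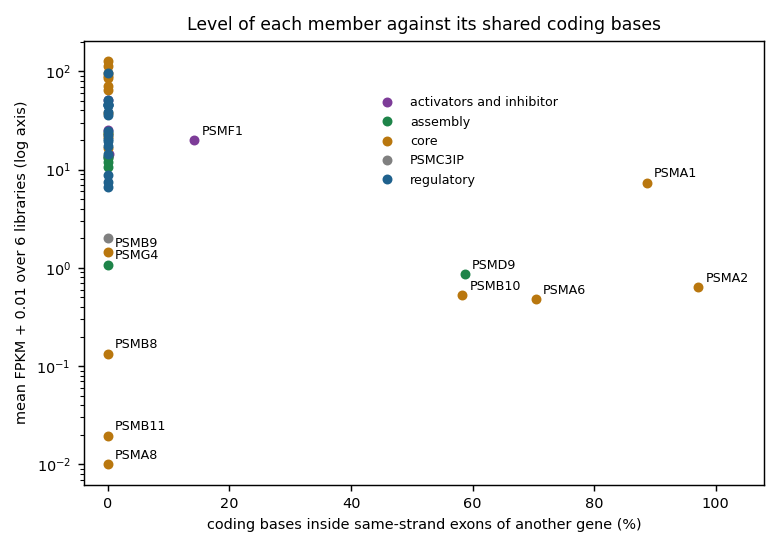
Mean FPKM + 0.01 over the 6 libraries (log axis) against the percentage of a gene's coding bases inside same-strand exons of another gene, 1 point per proteasome gene, coloured by class. PSMA2, PSMA6, PSMD9 and PSMB10 lie to the right and under 1 FPKM, PSMA1 lies to the right at 7.32 FPKM, and most subunits without sharing lie above 6 FPKM.

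The comparison of MST3 with vector found no proteasome gene past the threshold. Differences were tested as log2(FPKM + 1) with limma, adjusted by the Benjamini-Hochberg method over the 13036 genes that averaged at least 1 FPKM, and on this scale the changes of low genes are understated. Of the 42 tested genes, 0 had an adjusted p under 0.05 by limma, and the smallest adjusted p was 0.719. Of all 13036 genes, 1 passed (0.00767%), which was STK24. At an unadjusted p under 0.05 by limma, 1 of the 42 passed (2.38%), against 701 of all genes (5.38%), and limma voom on the recovered reads gave 0 of the 42 at the adjusted threshold (0.00767% of all genes). At an unadjusted p under 0.05 voom gave 4 of the 42 (9.52%), against 871 of all genes (6.68%). In these bulk libraries a lower count of expressing cells and less RNA per cell could not be told apart.

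The 95% interval of the difference lay within 0.5 on either side of 0 for 36 of the 41 proteasome genes and within 1 for all 41. Over all tested genes these counts were 9702 and 12283 of 13036. The difference was above 0 for 24 of the 41 (58.5%), against 46.6% of all tested genes. Its median was 0.0175 for the 41 proteasome genes and −0.014 for all tested genes. Without MST3 replicate 1 the median of the 41 was −0.0015. By class, the median was 0.027 over 13 core genes, 0.027 over 17 regulatory genes, −0.0056 over 5 activators and inhibitors and −0.032 over 6 assembly factors. In this fit of all 6 libraries no class median was as large as 0.05 in size. With voom the median was 0.062 for core and 0.063 for regulatory genes. It was −0.13 for assembly factors without MST3 replicate 2 and −0.070 for activators and inhibitors without MST3 replicate 3.

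The groups did not overlap for 7 of the 42 genes (16.7%), against 11.9% of all tested genes. In 6 of them (14.3%, against 5.19%) all MST3 libraries were higher, namely PSMB6, PSMB1, PSMB9, PSMD4, PSMD8 and PSMG4. PSMG4 averaged under 1 FPKM with vector and passed the filter through its MST3 libraries. Among the 41 of the 42 genes that averaged at least 1 FPKM in both groups, 5 were higher in all MST3 libraries (12.2%), against 4.82% of the 12563 such genes. In 1 (2.38%, against 6.70%) all MST3 libraries were lower, namely PSMC2.

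**Figure D3:**
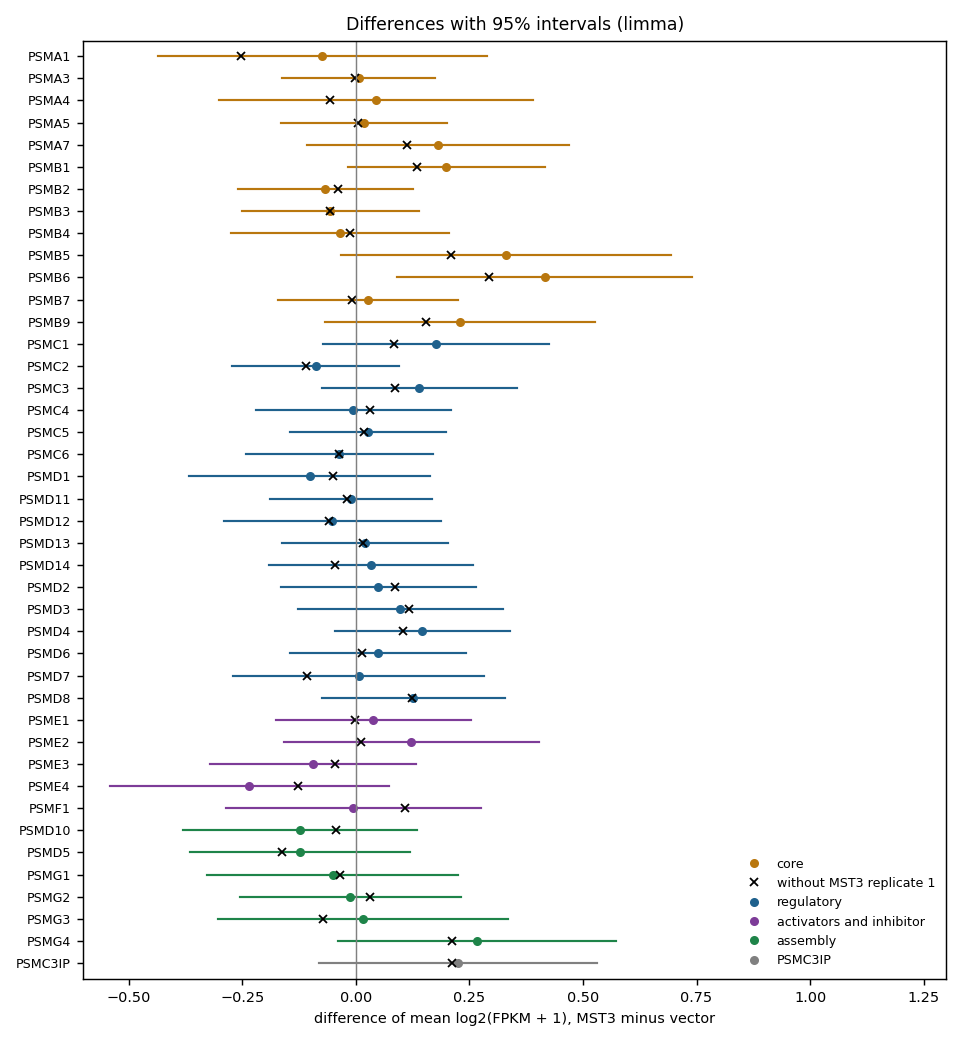
Difference of mean log2(FPKM + 1), MST3 minus vector, with its 95% interval from limma, for the 42 tested genes, coloured by class; crosses are the differences without MST3 replicate 1. The interval of PSMB6, at 0.42, is the only one of the 42 that leaves out 0, and its cross lies nearer to 0.

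Among the constitutive catalytic subunits, PSMB6 and PSMB5 had the largest differences and PSMB7 was nearly level. PSMB6 (chr17:4796144-4798503, plus strand, GRCh38) carries the caspase-like site and had 95.8, 67.7 and 80.9 FPKM in the MST3 libraries, against 60.8, 55.4 and 64.8 FPKM in the vector libraries. All MST3 libraries lay above all vector libraries, with MST3 replicate 1 the highest and MST3 replicate 2 close to the vector range. The means were 81.5 ± 14.0 and 60.4 ± 4.70 FPKM (SD, n = 3 each), a ratio of 1.35 with MST3, and their difference on the log2 scale came to 0.42 (SE 0.14; 95% interval 0.091 to 0.74). The unadjusted p was 0.0190 and the adjusted p 0.719 by limma. Without MST3 replicate 1 the difference was 0.29, with an adjusted p of 0.914 by limma. PSMB5 (chr14:23016543-23035230, minus strand), which carries the chymotrypsin-like site, had 84.8, 59.6 and 72.3 FPKM with MST3 and 60.6, 48.5 and 62.0 FPKM with vector. MST3 replicate 2 lay within the vector range, so the groups overlapped. The difference was 0.33 (95% interval −0.033 to 0.69, adjusted p = 0.719 by limma), with 0.21 without MST3 replicate 1 and 0.22 without vector replicate 2. PSMB7, with the trypsin-like site, had 94.8, 84.8 and 91.5 FPKM with MST3 and 88.9, 88.4 and 88.5 FPKM with vector, a difference of 0.027 (95% interval −0.17 to 0.22). The MST3 libraries of PSMB7 lay on both sides of the tightly grouped vector libraries.

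The inducible catalytic subunits PSMB8, PSMB9 and PSMB10 replace PSMB5, PSMB6 and PSMB7 in the immunoproteasome. PSMB8 and PSMB9 were scarce in both groups, while the low values of PSMB10 are uncertain because of its shared exons. PSMB9 had 1.92, 1.31 and 1.69 FPKM with MST3, against 1.28, 1.25 and 1.19 FPKM with vector. All MST3 libraries were higher, MST3 replicate 2 by a small margin, and the difference was 0.23 (95% interval −0.068 to 0.53, adjusted p = 0.719 by limma). PSMB8 rested on 8, 13 and 9 reads in the MST3 libraries and 7, 0 and 1 reads in the vector libraries. These counts did not overlap, but the gene was under the level at which genes were tested. PSMB10 had 0.305, 0.901 and 1.01 FPKM with MST3 and 0.368, 0.378 and 0.155 FPKM with vector, and MST3 replicate 1 fell among the vector libraries. Set against the constitutive partner within each library, PSMB9 made up 2.00, 1.94 and 2.09% of PSMB6 with MST3 and 2.10, 2.26 and 1.84% with vector. The groups overlapped, and the ratio of the MST3 mean to the vector mean was 1.32 for PSMB9 and 1.35 for PSMB6. PSMB9 rested on 64 to 94 reads per library. With each library left out in turn, the difference of this percentage between groups ran between −0.17 and 0.038 percentage points. PSMB8 was 0.197, 0.419 and 0.242% of PSMB5 with MST3 and 0.219, 0 and 0.0308% with vector. PSMB10 was 0.321, 1.06 and 1.10% of PSMB7 with MST3 and 0.414, 0.427 and 0.175% with vector. The groups overlapped in both ratios, and the values of PSMB10 carry the limit given above. In every library PSMB9 was at most 2.26% of PSMB6 and PSMB8 at most 0.419% of PSMB5.

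**Figure D4:**
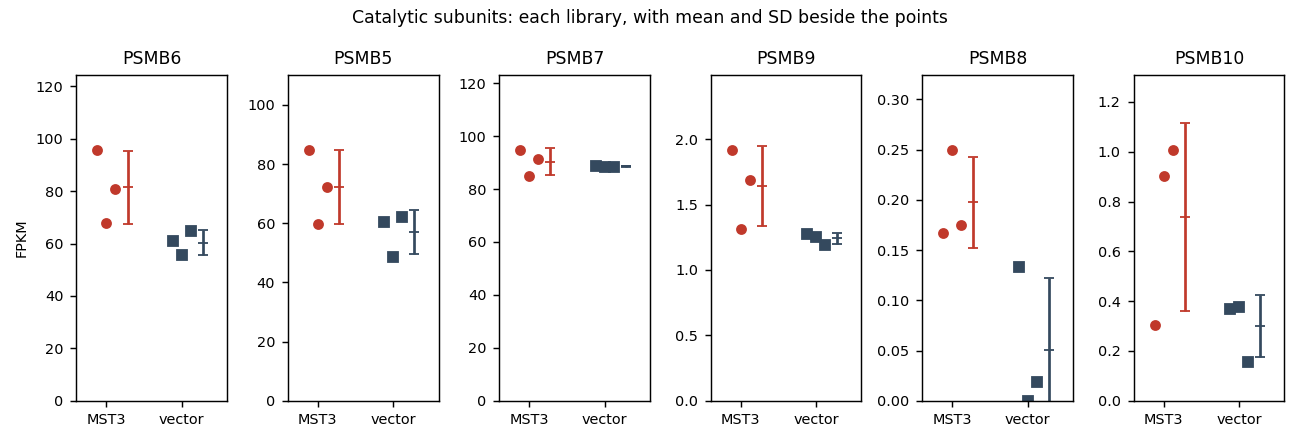
FPKM of the constitutive (PSMB6, PSMB5, PSMB7) and inducible (PSMB9, PSMB8, PSMB10) catalytic subunits, each with its own axis starting at 0; points are libraries, MST3 left and vector right, and bars are the mean ± SD of 3 libraries, with the vector bar of PSMB8 ending at 0. The MST3 points of PSMB6, PSMB9 and PSMB8 lie above all vector points, and those of the other 3 genes overlap them.

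The other beta and alpha subunits showed smaller differences of mixed sign. PSMB1, a non-catalytic beta subunit, had 100.8, 87.3 and 88.6 FPKM with MST3, against 80.6, 77.2 and 82.4 FPKM with vector. All MST3 libraries were higher, and the difference was 0.20 (95% interval −0.018 to 0.42, adjusted p = 0.719 by limma). PSMB2 and PSMB3 of the same ring had differences of −0.067 and −0.057, with groups that overlapped, and −0.029 without vector replicate 2 for PSMB2 and −0.026 without MST3 replicate 2 for PSMB3. Among 5 tested alpha subunits, the differences lay between −0.074 in PSMA1 and 0.18 in PSMA7. Leaving out MST3 replicate 1 gave 0.11 for PSMA7, and leaving out MST3 replicate 2 gave 0.31. PSMA1 depended on MST3 replicate 1, the highest of the 6 libraries, without which its difference was −0.25. PSMA4, with a printed response element, had 25.1, 24.1 and 16.9 FPKM with MST3 and 21.4, 21.1 and 20.6 FPKM with vector, a difference of 0.044. Its MST3 libraries lay on both sides of the vector libraries.

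In the regulatory particle all 17 genes were tested, 11 had a difference above 0 and 6 below 0, and every interval lay within 0.5 of 0. PSMD4, which encodes a ubiquitin receptor, had 51.9, 46.6 and 48.1 FPKM with MST3, against 43.1, 44.0 and 44.9 FPKM with vector. PSMD8, a subunit of the lid, had 48.0, 44.3 and 51.2 FPKM with MST3, against 43.8, 43.4 and 43.8 FPKM with vector. For both genes every MST3 library was higher, by 0.15 (95% interval −0.047 to 0.34) in PSMD4 and 0.13 (95% interval −0.075 to 0.33) in PSMD8, with an adjusted p of 0.719 by limma for each. Without MST3 replicate 3 the difference of PSMD8 was 0.077. PSMC2, an ATPase of the unfolding ring, had 19.5, 19.3 and 17.9 FPKM with MST3, against 21.0, 19.8 and 19.6 FPKM with vector. All MST3 libraries of PSMC2 were lower, with a difference of −0.089 (95% interval −0.27 to 0.095, adjusted p = 0.745 by limma) and only a small gap between the groups. Without MST3 replicate 3 the difference of PSMC2 was −0.053, and without vector replicate 1 it was −0.059. The ATPases PSMC1 and PSMC3 had differences of 0.18 and 0.14, and in both the groups overlapped. Without MST3 replicate 1 they were 0.085 for PSMC1 and 0.087 for PSMC3. Of the exon bases of PSMC1, 75.8% face annotated exons on the opposite strand, and without a stated strand setting reads from the opposite strands cannot be told apart. PSMD14, the deubiquitinase of the lid, had 16.5, 14.6 and 13.1 FPKM with MST3 and 14.2, 14.7 and 14.2 FPKM with vector, a difference of 0.033. PSMD3, a lid subunit, differed by 0.098, and by 0.031 without MST3 replicate 3 and 0.052 without vector replicate 2. Summed over 11 non-ATPase genes, the level was 396 ± 5.68 FPKM with MST3 and 382 ± 9.46 FPKM with vector (SD, n = 3 each). Summed over the 6 ATPases it was 159 ± 5.12 FPKM with MST3 and 154 ± 2.22 FPKM with vector. In both sums the groups overlapped.

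Activators and the inhibitor showed no common direction. PSME1 and PSME2, which form the cap that interferon is known to induce, had differences of 0.039 and 0.12. For PSME2, leaving out MST3 replicate 1 gave 0.011, and leaving out MST3 replicate 3 gave 0.23. PSME1 had 54.6, 50.2 and 50.1 FPKM with MST3 and 47.1, 54.3 and 49.4 FPKM with vector, and the groups overlapped throughout. PSME3, the nuclear relative, differed by −0.095, by −0.045 without MST3 replicate 1, by −0.17 without MST3 replicate 2 and by −0.050 without vector replicate 2. PSME4, a large single-chain activator, had 10.4, 14.9 and 11.8 FPKM with MST3 and 14.2, 15.7 and 13.8 FPKM with vector. Its difference was −0.23 (95% interval −0.54 to 0.072, adjusted p = 0.719 by limma), with −0.13 without MST3 replicate 1, the lowest library, and −0.37 without MST3 replicate 2. PSMF1, named as an inhibitor of the core particle, had 16.6, 19.96 and 22.9 FPKM with MST3 and 19.03, 20.4 and 19.8 FPKM with vector, a difference of −0.0056 that took the other sign under some scalings.

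Of 6 tested assembly factors, 2 had a difference above 0 and 4 below 0. PSMG4, a chaperone of the alpha ring, had 1.43, 1.11 and 1.23 FPKM with MST3, against 0.868, 0.790 and 0.957 FPKM with vector. All MST3 libraries were higher, with a ratio of 1.44 and a difference of 0.27 (95% interval −0.039 to 0.57, adjusted p = 0.719 by limma). Since its vector mean of 0.872 FPKM lay under the filter, the gene was tested only through its higher MST3 values, and its difference is a description. PSMD5 and PSMD10, chaperones of the ATPase ring, differed by −0.12 each, with groups that overlapped. Without MST3 replicate 3 the difference of PSMD5 was −0.043, and without vector replicate 2 it was −0.065. For PSMD10, leaving out MST3 replicate 1 gave −0.043, MST3 replicate 2 gave −0.20 and vector replicate 2 gave −0.061. PSMC3IP, the recombination protein, had 2.29, 1.81 and 2.65 FPKM with MST3 and 1.99, 1.79 and 1.54 FPKM with vector, a difference of 0.23 with overlapping groups, and 0.14 without MST3 replicate 3.

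The class medians differed more among the MST3 libraries than among the vector libraries, except for the regulatory genes. As the median deviation from each gene's mean over the 6 libraries, on the log2(FPKM + 1) scale, the core genes stood at 0.22, −0.070 and 0.033 in the MST3 libraries, against −0.0088, −0.016 and −0.029 in the vector libraries. The regulatory genes stood at 0.020, −0.0056 and −0.021 in the MST3 libraries, against −0.056, 0.0080 and 0.0051 in the vector libraries. MST3 replicate 1 was high and MST3 replicate 2 low for the core genes, and no library of either group stood as far from 0 for the regulatory genes. The core value was not shared by all of its parts, since the non-catalytic beta subunits stood at −0.043 in MST3 replicate 1. The median of the activators and inhibitor went the other way in the MST3 libraries, at −0.15, 0.057 and −0.097. In the vector libraries it was −0.048, 0.092 and 0.0071. The genes of this class were mixed in MST3 replicate 1, where the activators without the inhibitor stood at −0.023. There PSME1 and PSME2 were at their highest of the 6 libraries, and PSME3, PSME4 and PSMF1 at their lowest. The median over all tested genes lay between −0.028 and −0.0003 in the MST3 libraries and between 0.0040 and 0.014 in the vector libraries. Without MST3 replicate 1 the median difference of the core genes was −0.0023 and that of the regulatory genes 0.015.

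**Figure D5:**
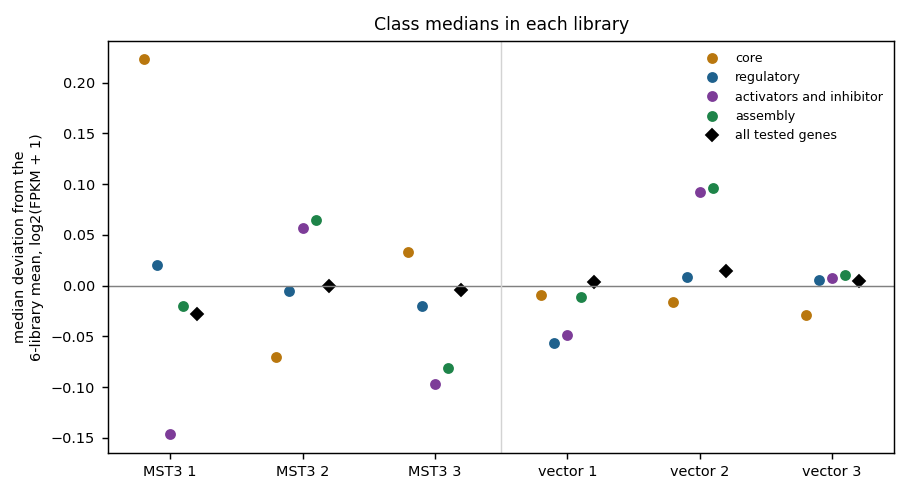
Median deviation of each class from the 6-library mean of its genes, on the log2(FPKM + 1) scale, in each library, with MST3 libraries left of the line and vector libraries right of it; black diamonds are all 13036 tested genes. The core genes reach 0.22 in MST3 replicate 1, and the black diamonds lie near 0 in every library.

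Base composition and length moved with these differences. Across the 42 tested genes, which share the same 6 libraries, the difference had a Pearson r of 0.422 with the GC content of the transcript and −0.287 with the logarithm of gene length. Across all tested genes r was 0.331 with GC content (12933 genes with a value) and −0.198 with length (13036 genes). Without MST3 replicate 1 the r with length was −0.065 over all genes and −0.197 over the 42. The r with GC content was then 0.368 over all genes and 0.443 over the 42. By rank (Spearman), the correlation with length over all genes was −0.256, and −0.158 without MST3 replicate 1. Over the 42 genes it was −0.194, and −0.199 without MST3 replicate 1. Genes shorter than 2000 bases had a median difference of 0.039 over 7 of the 42 genes and 0.080 over 2602 genes. In MST3 replicate 1 the median deviation of these short genes was 0.18 for the 7 genes and 0.13 for all genes, the highest of the 6 libraries in both cases. The part of length and GC content in the differences of the proteasome genes was not tested.

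Genes of the same pathway without a PSM symbol were likewise not called. Of 12 tested genes for other proteasome proteins, 4 had a difference above 0 and 8 below 0, and 0 passed the adjusted threshold by limma. ADRM1, which encodes another ubiquitin receptor of the regulatory particle, had 57.9, 43.1 and 65.5 FPKM with MST3 and 42.6, 38.0 and 43.4 FPKM with vector. MST3 replicate 2 lay just within the vector range, giving a difference of 0.40 (95% interval 0.033 to 0.76). Its unadjusted p was 0.0365, the 1 in this list under 0.05, and its adjusted p 0.719 by limma. SEM1, the smallest lid subunit, had 5.05, 2.14 and 2.32 FPKM with MST3 and 2.41, 2.44 and 2.35 FPKM with vector. The high value was MST3 replicate 1 alone, and without it the difference of 0.23 became −0.074. POMP, the chaperone that starts assembly of the beta ring, differed by 0.011.

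Among the regulators of these genes, NFE2L1 was close to level and MAFK had the largest difference of the list. NFE2L1 had 42.8, 37.1 and 41.0 FPKM with MST3 and 38.5, 37.4 and 41.3 FPKM with vector, a difference of 0.042 with overlapping groups. Of the 7 tested genes for NFE2L1, its relative NFE2L2, their partners and the enzymes that process NFE2L1, 4 had a difference above 0 and 3 below 0, and 0 passed the adjusted threshold by limma. MAFK, a small Maf protein that pairs with NFE2L1 and was singled out after its values were seen, had 17.6, 12.1 and 18.7 FPKM with MST3 and 11.7, 10.9 and 12.3 FPKM with vector. MST3 replicate 2 lay within the vector range, and the difference was 0.42 (95% interval 0.050 to 0.78), with an unadjusted p of 0.0311, the 1 in this list under 0.05, and an adjusted p of 0.719 by limma. The median difference was −0.0095 over the 14 tested proteasome genes with the response element core in a promoter, of which 6 were above 0. It was 0.012 over the 22 tested genes with a matched promoter that lacks the core, of which 13 were above 0. These 22 include PSMC3IP, which is not a proteasome gene and was above 0. The other 6 genes, PSMA7, PSMB1, PSMB6, PSMB7, PSMD4 and PSMG3, had no promoter to search, and their median difference was 0.16 with 6 of 6 above 0. Whether these genes hold the core is not known here, so the medians with and without it leave them out.

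The neighbouring lists held no gene past the adjusted threshold of limma. Of 11 tested genes for ubiquitin shuttles and p97 cofactors, 5 were above 0 and 6 below 0, and of 6 ubiquitin and ubiquitin-activating genes, 1 was above 0 and 5 below 0. UBB, which encodes polyubiquitin and was singled out after its values were seen, had 185, 159 and 181 FPKM with MST3, against 148, 150 and 154 FPKM with vector. All MST3 libraries of UBB were higher, and the difference was 0.21 (adjusted p = 0.719 by limma). FAF1, from the list of shuttles and p97 cofactors and likewise singled out afterwards, went the other way. It had 7.84, 10.78 and 10.5 FPKM with MST3, against 11.3, 12.3 and 10.79 FPKM with vector. All MST3 libraries of FAF1 were lower, and the difference was −0.23 (adjusted p = 0.719 by limma), or −0.097 without MST3 replicate 1. Of 9 tested genes of peptide presentation, which work downstream of the immunoproteasome, 4 were above 0 and 5 below 0. At an unadjusted p under 0.05 by limma, these 3 lists held 0 genes.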

How the data were processed

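The deposited table gave FPKM per gene and library as the authors scaled it, with gene lengths, positions and biotypes. HISAT2 is the aligner named per the submitters' processing notes. The version of HISAT2, the genome build, the annotation, the strand setting and the counting program are not given in any source used here. All 58735 Ensembl entries have their GENCODE 29 positions (GRCh38). FPKM times gene length was a whole multiple of 1 step per library for 100% of values (tolerance 0.01), which gave the reads; 1 read on 1 kb was worth 0.0576 to 0.0627 FPKM with MST3 and 0.0569 to 0.0583 FPKM with vector.

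Values were tested as log2(FPKM + 1) in limma 3.58.1 (R 4.3.3, lmFit, eBayes with an intensity trend, two-sided) over the 13036 genes that averaged 1 FPKM or more, adjusted over all of them at 0.05. The fit was also run on simulated counts drawn with the same spread in both groups. That run does not cover the unequal spread of these libraries given next. No pair of libraries in a group agreed within read-counting noise. The chi-square per degree of freedom was 22.4 to 28.6 between MST3 libraries and 6.62 to 7.71 between vector libraries. The MST3 libraries thus differed more among themselves, while the fit used a common variance for both groups. No library was treated as one deposited again, which does not show separate cultures. Python 3.11.15 with matplotlib 3.10.9, numpy 2.4.6 and pandas 2.3.3 made the tables and plots. Members, gene lists and the rule for naming genes were chosen with earlier results of these data known. Named were STK24, members whose groups do not overlap, up to 3 members per role with the smallest p, and a panel of 20 genes of known roles. PSMA2, PSMA6, PSMD9, MAFK, UBB, FAF1 and the genes at the ends of a range were chosen after seeing values. Alternatives covered the pseudocount, the filter, the scaling, the variance model, voom, the replicate block and each library left out.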

Additional observations from a re-analysis of the deposited data

How the results depend on the processing

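In all settings run, STK24 was the 1 gene called and 0 tested PSM genes (PSMC3IP included) were called. With limma voom on the recovered reads, the median difference was 0.054 over the PSM genes, 0.062 over the core genes and 0.063 over the regulatory genes. These medians were above the values on log2 FPKM, and the median of all tested genes was 0.015. The sign turned for PSMF1 (0.016 with median-of-ratios factors, 0.029 with voom), PSMB7 (−0.011 with quantile normalization) and POMP (−0.034 with quantile normalization). The cause was not tested. With each library left out in turn, the differences that changed sign ran between −0.0085 and 0.072 for PSMB7, −0.052 and 0.10 for POMP, −0.0056 and 0.094 for PSME1, −0.0019 and 0.098 for NFE2L1, −0.057 and 0.22 for PSMA4, −0.11 and 0.11 for PSMF1, −0.045 and 0.11 for PSMD14, −0.074 and 0.40 for SEM1 and −0.25 and 0.043 for PSMA1. Over the same libraries the median ran between −0.00070 and 0.036 for the PSM genes, −0.0023 and 0.047 for core, 0.012 and 0.045 for regulatory, −0.070 and 0.018 for activator and inhibitor and −0.13 and −0.0043 for assembly genes. PSMB6 stayed between 0.29 and 0.54. At an unadjusted p under 0.05 by limma, PSM genes numbered 0 of 42 (without vector replicate 2) to 8 of 42 (without MST3 replicate 2). All genes numbered 298 to 2554 of 13036 without the same libraries, so the count rose over all genes as well. Same-numbered libraries had correlations of 0.016, 0.226 and 0.035 over 13036 genes, so the numbers were not taken as pairs. The replicate block gave 1 gene and 0 PSM genes called, with 3 of 42 PSM genes and 1338 of 13036 genes at an unadjusted p under 0.05 by limma. PSMB8 rested on at most 13 reads per library and PSMB11 on at most 1, which limits both.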
